A study of Mus musculus with 23 samples.

Results

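Long intergenic noncoding RNAs (lincRNAs) are transcripts that lie outside protein-coding genes and hold no long open reading frame. Many are kept in the nucleus, and some are known to act on chromatin, on microRNAs or as the primary transcripts from which small nucleolar RNAs (snoRNAs) are cut. A large share start close to a protein-coding gene on the opposite strand, from a promoter that fires in both directions, and their levels per cell are typically low. The members described here were the autosomal genes that the GENCODE annotation of the mouse genome build NCBIM37 (mm9) types as lincRNA and that passed 1 CPM (counts of a gene scaled to the same total in every library) in at least 3 of 9 RNA-seq libraries, without the imprinted H19, Meg3, Rian and Mirg. These were 338 of the 14346 genes tested and 27.5% of the 1229 autosomal lincRNAs that the rule could have taken.

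All RNA came from mouse embryonic stem cells (ESCs) of the E14 line, harvested 48 h after treatment, with 3 biological replicates per group. The EtOH controls carried loxP-flanked Zbtb11 (Zbtb11lox/lox) and an ERt2-Cre transgene in Rosa26, in a line grown from an isolated colony, and received the carrier ethanol. The Zbtb11 KO cells were the same line given 250 nM 4-hydroxytamoxifen (4OHT), which moves the recombinase into the nucleus, and the 4OHT controls were Zbtb11WT/WT Rosa26WT cells given the same dose. ChIP-seq was done with an antibody to Zbtb11, a zinc finger protein of the ZBTB family, in 4 libraries of untreated E14 cells (Zbtb11WT/WT, Rosa26 WT), and with an anti-FLAG antibody in 3 libraries of untreated E14 cells whose Zbtb11 alleles carry the tag (Zbtb11FLAG/FLAG). The FLAG control was the same anti-FLAG ChIP in 2 libraries of untagged Zbtb11WT/WT cells. The KO and the EtOH control thus differed in the agent and in the deletion it induced, whereas the 4OHT control differed from the EtOH control in both the agent and the alleles at Zbtb11 and Rosa26, and these cannot be told apart.

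The libraries held 14301457 to 23876604 counts on genes, and lincRNAs took 0.220 to 0.251% of them. Replicate 1 stood apart from replicates 2 and 3 in all groups. Zbtb11 has no row of its own in this annotation, where its exons fall in the span of the Rpl24 row, so its loss could not be followed in these counts. The 8 ESC markers, among them Pou5f1, Sox2 and Nanog, summed to 4081 to 5275 CPM per library, whereas none of 6 lists for primitive endoderm, trophoblast, mesoderm, neuroectoderm, fibroblasts and 2-cell-like cells summed to more than 27.4 CPM.

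To show what the ChIP-seq windows at lincRNA promoters look like, the 300 bases at the centre of the 5 windows with the highest Zbtb11 coverage are given on the forward strand of mm9. Capitals mark CCGGAAG, the core bound by ETS factors such as GABP, or its complement CTTCCGG.
2410133F24Rik, chr9:56978419-56978718: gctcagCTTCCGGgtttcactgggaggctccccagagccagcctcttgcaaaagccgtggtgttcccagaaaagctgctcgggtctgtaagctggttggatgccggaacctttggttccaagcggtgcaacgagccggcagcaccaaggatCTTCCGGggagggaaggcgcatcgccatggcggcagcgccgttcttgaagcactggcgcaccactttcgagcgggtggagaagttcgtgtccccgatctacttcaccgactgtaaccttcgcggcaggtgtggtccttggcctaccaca
Gm4262, chr16:11008872-11009171: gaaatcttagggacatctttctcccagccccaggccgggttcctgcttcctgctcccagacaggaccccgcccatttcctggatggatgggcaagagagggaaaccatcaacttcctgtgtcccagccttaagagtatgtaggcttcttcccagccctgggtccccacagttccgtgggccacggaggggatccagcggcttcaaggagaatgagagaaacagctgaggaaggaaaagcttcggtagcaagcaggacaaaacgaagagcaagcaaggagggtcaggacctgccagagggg
Gm17480, chr17:25929241-25929540: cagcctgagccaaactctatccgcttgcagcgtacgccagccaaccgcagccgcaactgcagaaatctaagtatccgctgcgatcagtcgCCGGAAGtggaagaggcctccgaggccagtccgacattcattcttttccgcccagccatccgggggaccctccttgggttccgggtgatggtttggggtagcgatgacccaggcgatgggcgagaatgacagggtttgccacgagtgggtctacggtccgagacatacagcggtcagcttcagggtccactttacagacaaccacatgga
Gm17249, chr10:84084938-84085237: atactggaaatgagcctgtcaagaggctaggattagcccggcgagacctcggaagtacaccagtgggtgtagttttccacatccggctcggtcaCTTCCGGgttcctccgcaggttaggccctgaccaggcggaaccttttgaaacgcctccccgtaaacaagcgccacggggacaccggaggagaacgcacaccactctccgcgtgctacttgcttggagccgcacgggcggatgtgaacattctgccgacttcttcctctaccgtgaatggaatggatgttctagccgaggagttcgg
8430429K09Rik, chr11:3352276-3352575: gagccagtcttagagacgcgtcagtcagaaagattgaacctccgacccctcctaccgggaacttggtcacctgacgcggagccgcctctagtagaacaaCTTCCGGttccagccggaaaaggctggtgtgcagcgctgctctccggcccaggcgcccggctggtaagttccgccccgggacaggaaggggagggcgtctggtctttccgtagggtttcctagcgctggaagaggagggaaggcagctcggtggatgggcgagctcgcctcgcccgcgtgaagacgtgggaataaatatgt

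The stretch at 2410133F24Rik held 2 matches, those at Gm17480, Gm17249 and 8430429K09Rik held 1 each, and that at Gm4262 held none of these letters. The stretches at 2410133F24Rik, Gm17480 and Gm17249 did not contain the lincRNA start. Their matches lay 666 and 521 bases from it at 2410133F24Rik, 2502 at Gm17480 and 285 at Gm17249. At 8430429K09Rik the match lay 7 bases from the start. Searched on both strands over the same central 300 bases, CCGGAAG was in 29 of the 73 windows at lincRNA promoters (39.7%) and in 29.4% of all 7500 windows. These sets are unlike, since all 7500 also include windows away from promoters. Median GC content was 63.7% in the 73 and 57.0% in all windows. Windows at coding promoters were not counted separately. Among windows with high coverage, defined below, it was in 7 of 12 at lincRNA promoters and in 47.8% of all 857.

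The lincRNAs were mostly low and spanned a wide range of levels. Their median level was 1.94 CPM, with quartiles of 1.20 and 3.88 CPM, and 33 passed 10 CPM. Per kilobase of exon the median level was 0.918 CPM, against 6.23 CPM per kb for the 12877 protein-coding autosomal genes tested. Of the 338 lincRNAs, 188 were above 1 CPM in all 9 libraries. A further 2 passed only through the libraries of 1 group, Gm17516 through the 4OHT control and Gm16201 through the EtOH control, so that any difference they show was favoured by the filter. Gm17400 passed through EtOH and 4OHT control libraries alone, with no KO library above 1 CPM, so the filter likewise favoured a lower level in the KO. The lowest means inside the limit were 0.716 CPM (4932415G12Rik), 0.791 CPM (Gm16938) and 0.791 CPM (1700037F24Rik), and the highest outside it were 0.964 CPM (Gm12059), 0.961 CPM (Gm17256) and 0.953 CPM (Gm17453), each above 1 CPM in 2 libraries.

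**Figure D1:**
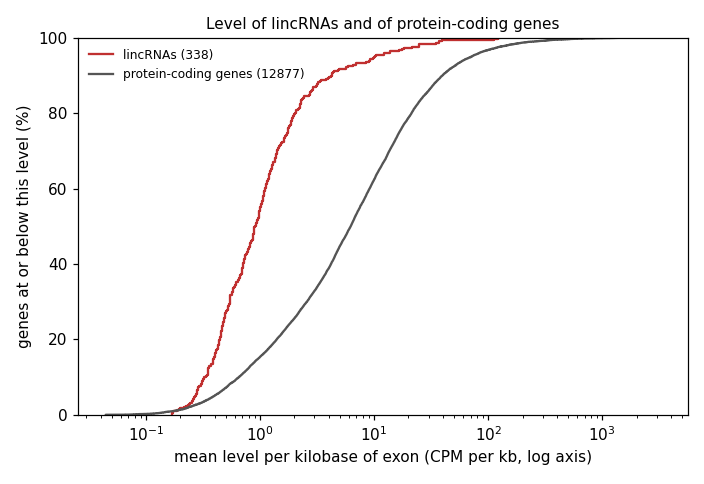
Share of genes at or below a mean level per kilobase of exon (CPM per kb over 9 libraries, log axis) for 338 lincRNAs and 12877 protein-coding genes. The lincRNA curve lies to the left, with medians of 0.918 and 6.23 CPM per kb.

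The annotation gave the lincRNAs a median exonic length of 2386 bases over a median of 3 exons, and each had more than 1 exon. In 114 of the 338 (33.7%), a protein-coding gene started on the opposite strand within 1 kb, whether the genes pointed away from each other or overlapped. The 300-base promoter stretches of these 114 lincRNAs (250 bases before to 50 after the start) had a median GC content of 65.7%. Their median observed over expected CpG ratio was 0.836. In the other 224 lincRNAs these values were 50.5% and 0.320. The TATA box TATAAA, searched on both strands, was in 4 of the 114 (3.51%) and in 34 of the 224 (15.2%), beside 15.8% of all 34653 autosomal promoters annotated. CCGGAAG was in 35 of the 338 stretches (10.4%), namely in 19 of the 114 (16.7%) and 16 of the 224 (7.14%), beside 7.87% of all promoters. The 12877 autosomal protein-coding genes tested had CCGGAAG in 16.4% and TATAAA in 7.47% of the same stretches. Where the coding neighbour was tested, it was the higher of the pair per kilobase in 104 of 111 pairs, with medians of 16.7 CPM per kb for the coding genes and 0.975 CPM per kb for the lincRNAs.

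Exon bases were shared with a gene on the opposite strand in 168 lincRNAs and with a gene on the same strand in 14, of which 12 overlapped small RNA genes. The libraries kept strand, but the strand setting of the read counting was not given in the sources used here. Reads that could not be assigned to a single gene made up 0.790 to 0.905% of those considered. For 10 members the symbol in the files is that of a coding gene, a pseudogene, a microRNA or a snoRNA (Atp10d, Bbip1, Nlrc5, Tdrd5, Trmt61b, Ttc28, Ppp4r1l-ps, Mir1900, Mir706 and Snord123), which goes against the lincRNA type, and none of these rows is read as that gene.

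Per kilobase, the highest lincRNA was Gm17300, at 124 CPM per kb, followed by 2410006H16Rik at 123 and Gm11019 at 113 CPM per kb. The levels of Gm11019 were 298, 271 and 294 CPM in the EtOH controls, 329, 277 and 281 CPM in the KO libraries and 357, 319.9 and 345 CPM in the 4OHT controls. Gm17300 had 201, 173 and 152 CPM in the EtOH controls, 229, 163 and 176 CPM in the KO libraries and 242, 187 and 177 CPM in the 4OHT controls, and its exons overlap Snhg3 and Rcc1 on the opposite strand. The next level per kb was that of Gas5, the host of a cluster of C/D box snoRNAs that accumulates when growth stops, at 39.4 CPM per kb. Its levels were 145, 125 and 133 CPM in the EtOH controls, 155, 141 and 158 CPM in the KO libraries and 163, 157 and 158 CPM in the 4OHT controls. 4930500J02Rik, Snhg5 and Snhg1 lay close behind at 37.4, 36.8 and 35.1 CPM per kb, within the spread of their libraries, and 2410004N09Rik, Gm11974 and Tug1 closed the 10 highest at 25.0, 24.8 and 21.5 CPM per kb.

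2410006H16Rik varied strongly between replicates. It had 72.6, 35.0 and 30.4 CPM in the EtOH controls, 74.9, 36.0 and 39.1 CPM in the KO libraries and 127, 55.5 and 39.3 CPM in the 4OHT controls. Replicate 1 was the highest library of each group, on average by 1.14 on the log2 scale, and no comparison of the groups called it without the replicate number as a block. With the block it was called higher in the 4OHT control than in the EtOH control (0.67, edgeR adjusted p = 2.55e-05) and lower in the KO than in the 4OHT control (-0.58, edgeR adjusted p = 0.000193). Over all members, replicate 1 lay above both other replicates in all 3 groups for 52 (15.4%) and below both for 50 (14.8%), beside 30.0% and 29.4% of all genes tested.

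To ask whether loss of Zbtb11 changed lincRNA levels, the KO was compared with the EtOH control of the same line. No lincRNA was called. The edgeR quasi-likelihood test at an adjusted p under 0.05 called 0 of 338, beside 121 lower and 8 higher of all 14346 genes (0.843% and 0.0558%), and DESeq2 also called 0, beside 1.25% of all genes. At an unadjusted p under 0.05, 8 lincRNAs were lower and 6 higher, 14 in all (4.14%), beside 1.95% lower, 0.85% higher and 2.8% in all of the genes tested. The median log2 fold change of the lincRNAs was 0.02, with quartiles of -0.14 and 0.14, against -0.00065 for all genes. The libraries of the groups did not overlap for 15 lincRNAs that were higher in the KO and 12 that were lower (4.44% and 3.55%), beside 5.44% and 2.61% of all genes.

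Given their low counts, the fold changes of lincRNAs had a median standard error of 0.27 on the log2 scale, against 0.16 for protein-coding genes. The 95% confidence interval of the change lay within 2-fold in both directions for 263 of the 338. It excluded a fall of 2-fold or more in 298 and a rise of 2-fold or more in 293. A change of 2-fold was thus not excluded in every member at this depth. Only Gm17400 had an estimate beyond 2-fold, and it passed the filter through control libraries alone.

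**Figure D2:**
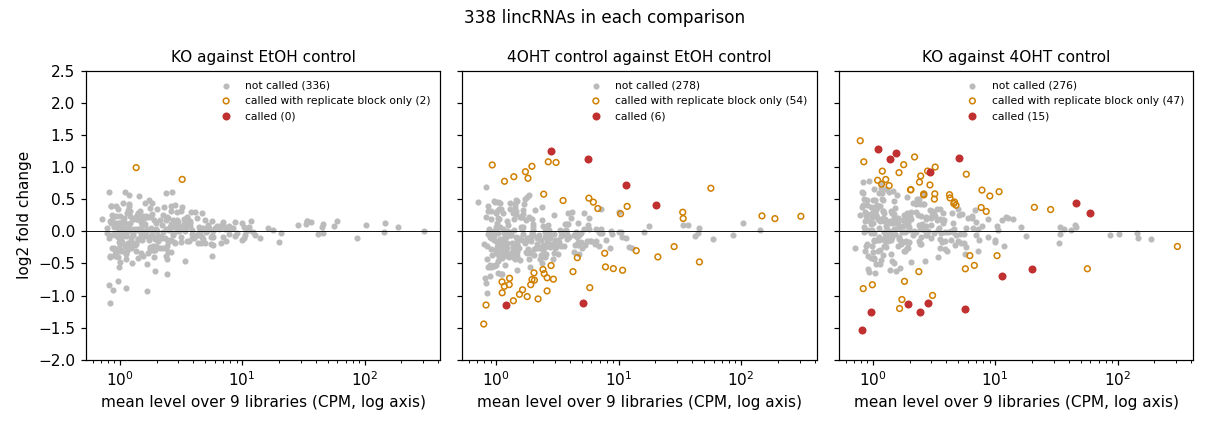
Log2 fold change of each of the 338 lincRNAs (vertical) against its mean level (CPM, log axis) in 3 comparisons; filled red points were called by edgeR at an adjusted p under 0.05 and open orange points only with the replicate number as a block. The first panel holds 0 red and 2 orange points, the second 6 and 54, and the third 15 and 47.

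The smallest p in this comparison was that of Gm17249, a lincRNA of 2 exons at chr10:84082077-84085323, minus strand. It had 1.01, 1.01 and 0.850 CPM in the EtOH controls, 2.28, 1.76 and 1.83 CPM in the KO libraries and 1.33, 1.12 and 1.08 CPM in the 4OHT controls. All KO libraries lay above all 6 control libraries. Its log2 fold change was 0.99 (SE 0.20, 95% interval 0.53 to 1.45), with an unadjusted p of 0.000837 and an edgeR adjusted p of 0.0834. With the replicate number as a block it was called at an edgeR adjusted p of 0.0180, and without replicate 1 that call was lost (0.90, edgeR adjusted p = 0.168). DESeq2 gave an adjusted p of 0.143. The counts behind these values ran from 19 to 38 per library.

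8430429K09Rik was the other lincRNA that was called with the block, which called 2 of 338 lincRNAs higher and 0 lower, beside 0.46% and 1.79% of all genes. This lincRNA of up to 4 exons at chr11:3352368-3379834, plus strand had 2.28, 3.43 and 2.24 CPM in the EtOH controls, 3.79, 5.88 and 4.66 CPM in the KO libraries and 1.40, 2.41 and 3.07 CPM in the 4OHT controls. Each KO library was the highest of its replicate number. The log2 fold change was 0.81 (SE 0.31), with an edgeR adjusted p of 1 without the block and 0.0154 with it.

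The next smallest p were those of lincRNAs with lower estimates in the KO, none of which was called in this comparison with or without the block. Gm17400 had 1.48, 0.712 and 1.07 CPM in the EtOH controls, 0.481, 0.392 and 0.644 CPM in the KO libraries and 0.769, 0.892 and 1.08 CPM in the 4OHT controls. Its KO libraries lay below all controls at 8 to 13 counts, and its log2 fold change was -1.11 (SE 0.35, edgeR adjusted p = 0.686). Only control libraries took it past 1 CPM, so this difference was favoured by the filter. Gm2093 had 1.43, 1.88 and 1.39 CPM in the EtOH controls, 0.901, 1.08 and 0.644 CPM in the KO libraries and 0.839, 0.758 and 1.13 CPM in the 4OHT controls, so that the KO libraries lay below the EtOH controls and among the 4OHT controls (log2 fold change -0.88, SE 0.28, edgeR adjusted p = 0.735). Gm17516 and 9430091E24Rik gave log2 fold changes of -0.83 (SE 0.30) and -0.46 (SE 0.17), each with an edgeR adjusted p of 1.

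**Figure D3:**
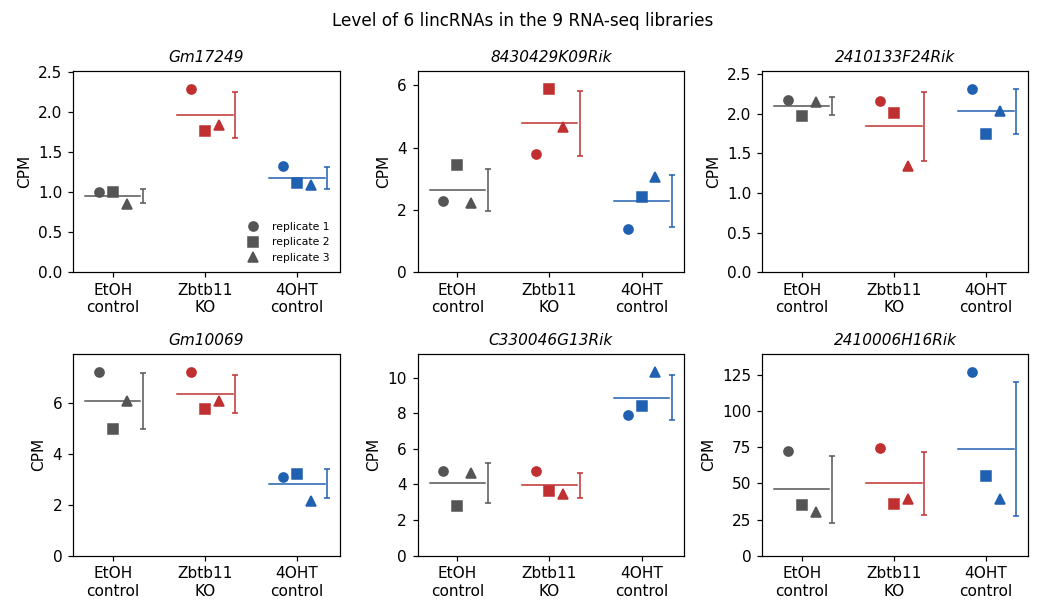
Level (CPM) of 6 lincRNAs in the 9 libraries by group, with a symbol for each replicate number, a line for the mean and a bar for the SD of 3 libraries. Gm17249 is highest in the KO libraries, Gm10069 is lowest and C330046G13Rik highest in the 4OHT controls, and 2410006H16Rik is highest in replicate 1 of each group.

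Among lincRNAs with known roles, 12 of the listed symbols were members, and 0 of 12 were called in this comparison with or without the block. The snoRNA hosts Gas5, Snhg1, Snhg4, Snhg5, Snhg7 and Snhg12 gave log2 fold changes of 0.07 to 0.17, and the lowest and highest bounds of their 95% intervals were -0.24 and 0.43. Snhg4 gave -0.0082 without replicate 2, and Snhg1 gave 0.0075 without replicate 3. Tug1, which binds chromatin repressors, had 138, 136 and 150.3 CPM in the EtOH controls, 133, 149 and 152 CPM in the KO libraries and 117, 143 and 172 CPM in the 4OHT controls, and the KO and EtOH libraries overlapped (log2 fold change -0.0022, SE 0.15). 1700020I14Rik, known as Cyrano, a conserved transcript that directs the decay of a microRNA, had 100.4, 80.7 and 85.7 CPM in the EtOH controls, 91.1, 78.6 and 84.9 CPM in the KO libraries and 88.8, 82.4 and 87.2 CPM in the 4OHT controls (log2 fold change -0.10, SE 0.09). Miat, a nuclear RNA of neurons and ESCs, had the largest estimate of the list at 0.62 (SE 0.30, edgeR adjusted p = 1), with 1.80, 1.63 and 1.70 CPM in the EtOH controls, 2.04, 2.94 and 3.07 CPM in the KO libraries and 2.17, 4.24 and 4.37 CPM in the 4OHT controls. Pvt1, the neighbour of Myc, Nespas, an imprinted transcript of the Gnas locus, and Sox2ot, whose gene contains Sox2, gave 0.07, 0.06 and 0.07.

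Zbtb11 coverage was then examined at the lincRNA promoters, from 2 kb upstream to 500 bases downstream of the start. Of the 338, 73 had a window of the coverage table there (21.6%, Wilson 95% interval 17.5 to 26.3), beside 3829 of 12877 protein-coding genes (29.7%, 29.0 to 30.5). These intervals cover counting error only. Among lincRNAs with a coding start on the opposite strand within 1 kb, 48 of 114 had a window (42.1%, 33.4 to 51.3), against 25 of the other 224 (11.2%, 7.67 to 16). Of the 73 windows, 50 also reached the promoter of a protein-coding gene, and 55 were centred within 500 bases of the lincRNA start. None of the 338 promoters held a peak of the FLAG control.

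Median coverage over the 73 windows was 82.2, 104, 94.5 and 92.2 in the 4 Zbtb11 libraries and 80.7, 89.2 and 102 in the 3 FLAG-Zbtb11 libraries. The median of the means over the Zbtb11 libraries was 94.4, beside 106 for windows at coding promoters and 71.3 for all 7500 windows. High coverage was set above 309, the upper quartile of all windows plus 1.5 times their interquartile range. It was reached by 12 lincRNA promoters (3.55% of 338, Wilson 95% interval 2.04 to 6.10) and by 786 coding promoters (6.10%, 5.70 to 6.53), and 8 of those 12 windows also lay at a coding promoter.

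**Figure D4:**
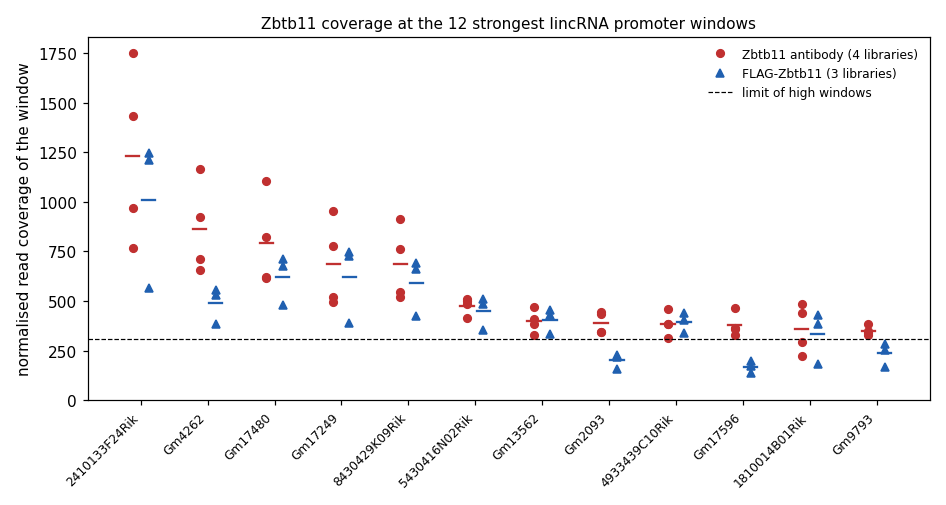
Normalised read coverage of the 12 windows above the limit of 309 (dashed), with each Zbtb11 antibody library as a circle, each FLAG-Zbtb11 library as a triangle and the mean of each ChIP as a line. Coverage falls from a mean of 1231 at 2410133F24Rik to 350.2 at Gm9793.

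The strongest of these windows lay at 2410133F24Rik, a lincRNA of up to 4 exons at chr9:56947757-56979097, minus strand. Its coverage was 970.3, 1435, 767 and 1753 in the Zbtb11 libraries and 1213, 1249 and 564 in the FLAG-Zbtb11 libraries, and it ranked 2 of all 7500 windows. Man2c1, which encodes a cytosolic mannosidase, starts 600 bases away on the opposite strand under the same window. The lincRNA had 2.17, 1.97 and 2.15 CPM in the EtOH controls, 2.16, 2.01 and 1.34 CPM in the KO libraries and 2.31, 1.74 and 2.03 CPM in the 4OHT controls. Man2c1 had 46.8, 36.9 and 35.8 CPM in the EtOH controls, 14.2, 17 and 16.2 CPM in the KO libraries and 54.0, 44.4 and 39.7 CPM in the 4OHT controls. The KO libraries of Man2c1 lay below all controls, at a log2 fold change of -1.36 (SE 0.14, edgeR adjusted p = 0.000932), whereas those of the lincRNA overlapped the controls, at -0.23 (SE 0.22, 95% interval -0.73 to 0.26). The difference between the changes of the pair was not tested.

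At Gm17249 the coverage was 518, 776, 495 and 956 with the Zbtb11 antibody and 728, 747 and 388 with FLAG. Polr3b, a subunit of RNA polymerase III, starts 141 bases away on the opposite strand, and the exons of the lincRNA and of Polr3b share bases. Polr3b had 81.7, 94.9 and 95.1 CPM in the EtOH controls, 66.4, 68.8 and 72.7 CPM in the KO libraries and 104, 118 and 119 CPM in the 4OHT controls. Its KO libraries lay below all controls, at a log2 fold change of -0.43 (SE 0.11), which was called with the block (edgeR adjusted p = 1.96e-05) and not without it (0.260). The estimates of this pair thus had opposite signs, with the lincRNA at 0.99.

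8430429K09Rik starts 2 bases from Rnf185, which encodes a ubiquitin ligase, on the opposite strand. The window there had coverage of 548, 761, 518 and 914 with the Zbtb11 antibody and 693, 659 and 427 with FLAG. Rnf185 had 36.7, 44.0 and 41.7 CPM in the EtOH controls, 36.6, 45.2 and 41.0 CPM in the KO libraries and 44.5, 46.3 and 40.6 CPM in the 4OHT controls, and its groups overlapped (log2 fold change -0.03, SE 0.12). Both lincRNAs that were called higher in the KO with the block were among the 12 with high coverage, 2 of 12 (16.7%). Of the 786 coding genes with high coverage, the block called 29%, 190 lower and 38 higher. The windows of both lincRNAs also lay at coding promoters, those of Polr3b and Rnf185. Without the block, 0 of the 12 lincRNAs were called. A link between coverage and these calls was not tested.

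Gm4262, at chr16:11008991-11015279, plus strand, was the strongest window away from any coding promoter, 57259 bases from the nearest coding start. Its coverage was 710.2, 923, 656 and 1167 with the Zbtb11 antibody and 554, 532 and 382 with FLAG. The RNA had 1.96, 1.51 and 1.66 CPM in the EtOH controls, 2.34, 2.30 and 1.54 CPM in the KO libraries and 1.05, 0.714 and 0.866 CPM in the 4OHT controls, so that the KO overlapped the EtOH control (log2 fold change 0.23, SE 0.23) and lay above the 4OHT control. The window counted for Gm17480 was centred at -2449 bases from its start, where Fam173a begins, and the lincRNA itself had 2.28, 2.14 and 1.52 CPM in the EtOH controls, 4.21, 2.35 and 2.68 CPM in the KO libraries and 2.31, 1.74 and 2.29 CPM in the 4OHT controls (log2 fold change 0.59, SE 0.26, edgeR adjusted p = 1). The remaining members of the 12 were 5430416N02Rik, Gm13562, Gm2093, 4933439C10Rik, Gm17596, 1810014B01Rik and Gm9793, with mean coverage of 477 down to 350.2.

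The 12 lincRNAs with high coverage had log2 fold changes of -0.88 to 0.99 in the KO against the EtOH control, with a median of 0.07, and 7 were above 0. Of the 786 coding genes with high coverage, 99 were called lower and 8 higher (13.6%), with a median of -0.05, and with the block 190 lower and 38 higher (29%). The lincRNAs were also measured with less precision, at a median SE of 0.23 and a median level of 2.32 CPM, against 0.14 and 37.0 CPM for these coding genes. The 61 lincRNAs with weaker windows had a median of 0.04 and the 265 without a window a median of 0.01, and 0 were called in either class, beside 0.197% and 0.144% of the coding genes in the same classes. A lincRNA and a tested coding gene started on opposite strands within 1 kb in 111 pairs. Among these pairs, Man2c1 was the only coding gene called in the KO without the block. With the block, Polr3b was the only other one. Beside these, 0.959% of all protein-coding genes were called without the block and, with it, 1.79% lower and 0.46% higher of all genes.

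**Figure D5:**
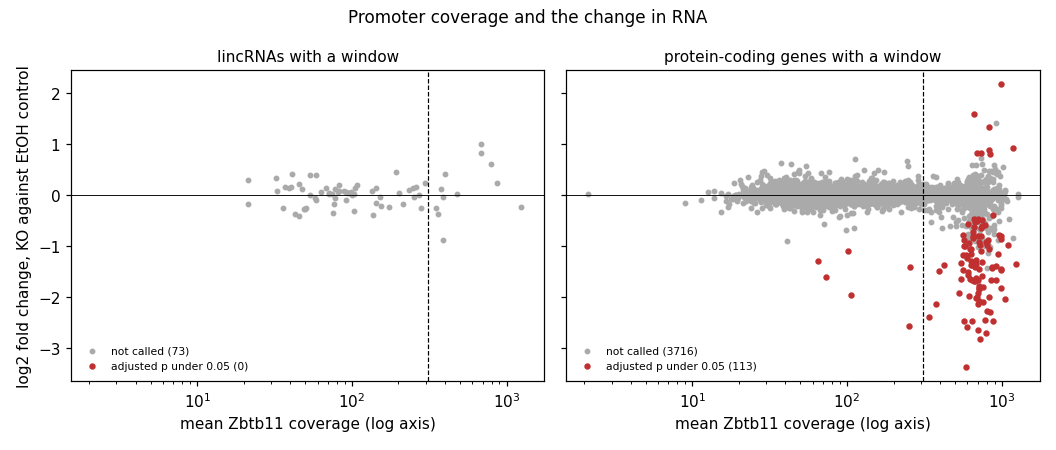
Log2 fold change in the KO against the EtOH control (vertical) against mean Zbtb11 coverage of the promoter window (log axis) for lincRNAs and protein-coding genes that have one, with the limit of high coverage dashed and genes called by edgeR in red. Red points are absent among the 73 lincRNAs and lie mostly below 0 and right of the dashed line among the coding genes.

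The 4OHT control differed from the EtOH control in more lincRNAs. The edgeR test called 2 lower and 4 higher of 338, beside 2.01% and 2.06% of all genes tested, with a median log2 fold change of -0.10 for the lincRNAs and 0.00053 for all genes. With the block the counts were 35 lower and 25 higher, beside 16.5% and 17% of all genes, and without replicate 1 they were 13 and 18 of 317, beside 8.22% and 8.86%. Without replicate 2, and likewise without replicate 3, 0 were called, and DESeq2 called 9 lower and 8 higher, beside 4.16% and 4.11%. The groups did not overlap in 26 lincRNAs higher in the 4OHT control and 39 lower (7.69% and 11.5%), beside 11% and 10.6% of all genes. The median of the lincRNAs was -0.02 without replicate 1.

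Gm10069 fell in the 4OHT control. This lincRNA of 3 exons at chr6:128388775-128425635, plus strand had 7.21, 4.98 and 6.09 CPM in the EtOH controls, 7.21, 5.78 and 6.10 CPM in the KO libraries and 3.08, 3.21 and 2.16 CPM in the 4OHT controls, so that the 4OHT controls lay below all other libraries. Its log2 fold change was -1.12 against the EtOH control (SE 0.20, edgeR adjusted p = 0.0180) and that of the KO against the 4OHT control was 1.15 (SE 0.20, edgeR adjusted p = 0.00983), 2 comparisons that share the 4OHT control libraries. Fkbp4, which encodes an immunophilin that works with Hsp90, starts 80 bases away on the opposite strand and had 814, 877 and 839 CPM in the EtOH controls, 847, 853 and 899 CPM in the KO libraries and 600.3, 584 and 604 CPM in the 4OHT controls. It was also called lower in the 4OHT control, at -0.51 (SE 0.07, edgeR adjusted p = 0.00756). The other lincRNA called lower was 1700113A16Rik, with 1.32, 1.76 and 1.52 CPM in the EtOH controls, 1.14, 1.57 and 1.39 CPM in the KO libraries and 0.629, 0.758 and 0.693 CPM in the 4OHT controls (log2 fold change -1.14, SE 0.24, edgeR adjusted p = 0.0333).

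C330046G13Rik, A930011O12Rik, Gm13110 and Gm17344 rose in the 4OHT control. C330046G13Rik had 4.77, 2.76 and 4.65 CPM in the EtOH controls, 4.75, 3.62 and 3.47 CPM in the KO libraries and 7.90, 8.43 and 10.3 CPM in the 4OHT controls, with the 4OHT controls above the rest (log2 fold change 1.13, SE 0.23, edgeR adjusted p = 0.0311). A930011O12Rik, whose exons hold the microRNA gene Mir124a-1 on the same strand, had 1.59, 1.47 and 2.55 CPM in the EtOH controls, 2.16, 1.67 and 2.53 CPM in the KO libraries and 4.20, 4.19 and 5.11 CPM in the 4OHT controls (log2 fold change 1.26, SE 0.26, edgeR adjusted p = 0.0333). The more abundant Gm13110 and Gm17344 rose by less, at 0.71 (SE 0.13) and 0.42 (SE 0.09). Gm17344 had 20.1, 17 and 18.7 CPM in the EtOH controls, 17.6, 16.8 and 16.4 CPM in the KO libraries and 25.2, 23.6 and 26.1 CPM in the 4OHT controls, and it starts 87 bases from Phlpp2 on the opposite strand.

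Gt(ROSA)26Sor, the lincRNA of the Rosa26 locus, is the member whose own gene carried the transgene in the KO and EtOH cells and not in the 4OHT controls. It had 2.86, 2.05 and 3.13 CPM in the EtOH controls, 3.12, 3.04 and 2.53 CPM in the KO libraries and 1.82, 2.54 and 1.95 CPM in the 4OHT controls, and it was not called in the 4OHT control against the EtOH control (log2 fold change -0.35, SE 0.23, edgeR adjusted p = 0.495). Setd5, a SET domain gene that starts 32 bases away on the opposite strand, had 424, 466 and 455 CPM in the EtOH controls, 404, 453 and 422 CPM in the KO libraries and 297, 325 and 325 CPM in the 4OHT controls and was called lower in the 4OHT control (log2 fold change -0.51, SE 0.09, edgeR adjusted p = 0.0166). Both of these were described after their values were seen.

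Set against the 4OHT control, the KO had 8 lincRNAs lower and 7 higher, beside 3.72% and 2.73% of all genes, with medians of 0.09 for the lincRNAs and 0.00085 for all genes. With the block 21 were lower and 41 higher, beside 18.1% and 16.9% of all genes, and without replicate 1 the counts were 14 and 19, beside 10.3% and 8.38%. Leaving out replicate 2 or replicate 3 left 0. DESeq2 called 11 lower and 16 higher, beside 5.67% and 4.57% of all genes. With library sizes alone, without the TMM scaling, edgeR called 7 lower and 11 higher, beside 3.19% and 3.26%. The groups did not overlap in 53 lincRNAs higher in the KO and 28 lower (15.7% and 8.28%), beside 13.5% and 9.98% of all genes.

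Of the lincRNAs lower in the KO than in the 4OHT control, 4 were not called in the other comparisons without the block, namely Gm17516, AC152164.1, Gm10060 and 9330185C12Rik. The largest estimate was that of Gm17516 at -1.53 (SE 0.29, edgeR adjusted p = 0.0142), with 0.848, 0.796 and 0.671 CPM in the EtOH controls, 0.601, 0.392 and 0.347 CPM in the KO libraries and 1.05, 1.20 and 1.47 CPM in the 4OHT controls, the member that passed the filter through the 4OHT control alone. Gm10060 had 2.54, 2.43 and 2.01 CPM in the EtOH controls, 2.34, 1.27 and 0.942 CPM in the KO libraries and 3.15, 3.88 and 3.42 CPM in the 4OHT controls and a log2 fold change of -1.25 (SE 0.30). AC152164.1 and 9330185C12Rik gave -1.26 and -1.12. With the block, Gm10060 and 9330185C12Rik were also called higher in the 4OHT control than in the EtOH control (edgeR adjusted p = 0.0290 and 0.000768). The remaining 4 were those that rose in the 4OHT control above, C330046G13Rik at -1.21, A930011O12Rik at -1.12, Gm13110 at -0.70 and Gm17344 at -0.59, in a comparison that shares its 4OHT control libraries with the last.

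Those higher in the KO than in the 4OHT control were 2810029C07Rik, which starts 108 bases from the kinase gene Mark3, Gm4262, Gm10069, Gm11613, Gm16880, 1810058I24Rik and 4930500J02Rik. 2810029C07Rik had 1.17, 0.880 and 1.07 CPM in the EtOH controls, 1.68, 1.71 and 1.49 CPM in the KO libraries and 0.629, 0.892 and 0.433 CPM in the 4OHT controls, with a log2 fold change of 1.28 (SE 0.28, edgeR adjusted p = 0.0289). Gm4262, with the high Zbtb11 coverage given above, changed by 1.21 (SE 0.25, edgeR adjusted p = 0.0213), and its 4OHT control against EtOH control estimate was -0.98 (SE 0.25, edgeR adjusted p = 0.0638 without the block and 0.00559 with it). The abundant 4930500J02Rik moved least among those called, by 0.29 (SE 0.07), with 58.9, 55.8 and 57.9 CPM in the EtOH controls, 64.6, 67.3 and 67.0 CPM in the KO libraries and 55.3, 51.8 and 52.9 CPM in the 4OHT controls, so that all KO libraries lay above all controls.

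Taken as a class, lincRNAs took 0.232 ± 0.0157% of the counts in the EtOH controls (SD, n = 3), 0.243 ± 0.00741% in the KO and 0.242 ± 0.00727% in the 4OHT controls. Shares per replicate were 0.250, 0.220 and 0.226% in the EtOH controls, 0.251, 0.237 and 0.241% in the KO and 0.250, 0.236 and 0.240% in the 4OHT controls. The KO and EtOH controls differed by 0.0114 percentage points, with p = 0.3 in a two-sided exact permutation test, which cannot go below 0.1 with 3 libraries against 3, and the KO and 4OHT controls by 0.00107 points (exact permutation p = 0.7). The 4OHT and EtOH controls differed by 0.0103 points (exact permutation p = 0.3). Paired by replicate number, the KO was higher than the EtOH control by 0.00170, 0.0170 and 0.0154 points and higher than the 4OHT control by 0.00107, 0.00059 and 0.00156 points, in 3 of 3 pairs each. The 4OHT control was also higher than the EtOH control, by 0.00062, 0.0164 and 0.0139 points, in 3 of 3 pairs. A two-sided exact permutation of the signs within pairs, added after the data were seen, gave p = 0.25 for each comparison, the smallest that 3 pairs allow. On nuclear genes alone, the KO was -0.00221 points from the 4OHT control. In bulk RNA, fewer cells that express a lincRNA and less of it per cell cannot be told apart.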

How the data were processed

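RNA-seq was measured in 9 rRNA-depleted, directional libraries. The counts per gene were deposited by the authors, who trimmed reads with TrimGalore and PRINSEQ, aligned them to the mouse transcriptome with STAR and counted them with HTSeq, without normalisation. Reads that HTSeq assigned to no annotated feature, 25.3 to 31.6% of those considered, and its other summary lines stayed out of the library sizes. The authors also deposited the read coverage (signal) of 7500 consensus ChIP-seq windows, which DiffBind had scaled to make the libraries comparable, after alignment to mm9 with Bowtie 1.1.2. The peak lists hold positions only.

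In R 4.3.3, edgeR 4.0.16 was run on the counts (TMM scaling, quasi-likelihood F test in its earlier form, all 9 libraries, group as the only term), on genes above 1 CPM in at least 3 libraries, with Benjamini-Hochberg adjustment over all 14346 genes and a threshold of 0.05. DESeq2 1.42.0, other scalings, other filters, a stricter threshold, a replicate block and fits without each replicate were alternatives. Standard errors were taken from the fold change and the F statistic. Scripts were tested on simulated data. Shares of counts were compared by exact permutation tests. Sequences and motif matches were read from the NCBIM37 genome with Python 3.11.15, and gene types and starts from GENCODE vM1.

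Same-numbered replicates deviated together from their group means (r = 0.43 to 0.82 for every pair). Different-numbered pairs gave r = -0.75 to 0.53. Those of replicate 2 with replicate 3 gave 0.29 to 0.53, which overlaps the same-numbered values. The numbers thus set replicate 1 apart, whereas a pairing within replicates 2 and 3 was less clear. The block is given where it changes a call or a count.

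The members and lists were chosen with earlier results of these data known. Genes named were members among a list of lincRNAs with known roles, the 10 largest changes among called genes whose groups do not overlap (or the 5 smallest p where fewer than 3 were called), the 10 highest per kilobase, the 10 promoters with the highest Zbtb11 coverage, coding genes that start opposite a lincRNA the KO comparison called, and the members next to the limit of 1 CPM. Other genes were named after their values were seen, namely Gt(ROSA)26Sor, Fkbp4, Setd5, Man2c1, Polr3b and Rnf185 and the neighbours named by position.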

Additional observations from a re-analysis of the deposited data

How the results depend on the processing

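Low counts left wide intervals on the fold changes of many lincRNAs, and intervals on shares cover counting error only. A ChIP-seq window can belong to a lincRNA and a coding gene alike.

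With the replicate block, the KO against the EtOH control gave 0 lincRNAs lower and 2 higher, and without replicate 1 and with the block 1 and 1, where 8430429K09Rik was still called and Gm17249 was not. Single replicates left out gave 0 in both directions, as did every other alternative. The block changed no other call in this comparison, and in the other comparisons it added calls and lost none.

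For the 4OHT against the EtOH control, the main 2 lower and 4 higher became 9 and 8 with DESeq2, 0 and 0 with only the groups compared, 35 and 25 with the block, 22 and 23 without replicate 1 and with the block, and 0 and 0 at a threshold of 0.01. Leaving out a replicate gave 0 to 13 lower and 0 to 18 higher, the 0 without replicate 2 or 3.

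For the KO against the 4OHT control, the main 8 lower and 7 higher became 16 higher with DESeq2, 11 higher without TMM, 4 higher with no filter, 5 and 1 with only the groups compared, 21 and 41 with the block, 21 and 28 without replicate 1 and with the block, and 1 and 1 at 0.01. Leaving out a replicate gave 0 to 14 lower and 0 to 19 higher. The median log2 fold change, 0.09, was 0.12 without TMM, 0.060 without replicate 1 and with the block, and 0.064 to 0.092 with a replicate left out. The difference in the share of counts, 0.00107 points, was -0.00221 on nuclear genes and 0.00560 without the most abundant lincRNA. The cause of these changes was not tested.

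The 73 promoters with a window became 25 of 224 without lincRNAs that have a coding start on the opposite strand within 1 kb, an alternative chosen after seeing the data. The other counts of windows stayed within 1.5 times. Among single named lincRNAs, 1491 of their values under an alternative kept their side of the threshold, 61 passed it only there and 74 lost it, and none that was called changed sign.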

Other observations

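Coding genes that start opposite a lincRNA within 1 kb could also differ between the 4OHT and EtOH controls where the lincRNA was not called. Nit2, an amidase, was called lower in the 4OHT control at a log2 fold change of -0.40 (SE 0.08, edgeR adjusted p = 0.0299). Gm16892, which starts 69 bases from Nit2, gave -0.53 (SE 0.34, edgeR adjusted p = 0.476). Cnot1, a scaffold of the deadenylase complex, was called higher at 0.34 (SE 0.07, edgeR adjusted p = 0.0252), and 4930513N10Rik, 636 bases away, gave 0.34 (SE 0.17, edgeR adjusted p = 0.358). The differences between the changes within these pairs were not tested, and the pairs were named after their values were seen.

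Of the 12 lincRNAs with known roles, 4 were called between the 4OHT and EtOH controls with the replicate block and 0 without it, beside 16.5% lower and 17% higher of all genes with the block. Miat rose by 1.08 (edgeR adjusted p = 0.000345 with the block and 0.0818 without), and the snoRNA hosts Gas5 and Snhg7 by 0.24 and 0.20. The snoRNA host Snhg12 fell, at a log2 fold change of -0.24 (edgeR adjusted p = 0.0148 with the block and 0.279 without). For the KO against the 4OHT control, which shares those 4OHT libraries, 2 of the 12 were called with the block and 0 without it, beside 18.1% lower and 16.9% higher of all genes with the block. They were Snhg12 at 0.34 (edgeR adjusted p = 0.000982) and Nespas at 0.31 (edgeR adjusted p = 0.0382).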
